A study of Mus musculus with 10 samples.

Results

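Calcineurin and protein phosphatase 1 (PP1) are serine/threonine phosphatases that act in synaptic depression. The 10 genes described here encode subunits of these enzymes or proteins that regulate them: Ppp3ca, Ppp3cb, Ppp3r1, Ppp1ca, Ppp1cb, Ppp1cc, Ppp1r1a, Ppp1r1b, Rcan1 and Rcan2. They were chosen by name, with no measured value in the rule, and each was found once by its gene identifier among the 22255 genes of the deposited gene table. RNA came from hippocampal synaptoneurosomes, in which synaptic terminals and attached spines have torn off and closed again, of wild-type C57Bl/6J mice. The animals had received vehicle (5 libraries) or AM6545 (5 libraries) over a sub-chronic course, and the comparison asked whether the treatment went with a difference in the RNA of this fraction. AM6545 blocks the CB1 cannabinoid receptor and is known as a compound with little access to the brain. The labels give no dose, age or sex and do not say whether a library came from 1 mouse or a pool, so replicates are libraries and p-values measure the spread between them, which may be technical.

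Calcineurin is a calcium- and calmodulin-dependent enzyme made of a catalytic A subunit and a calcium-binding B subunit. In the classical scheme of long-term depression, modest calcium entry through NMDA receptors activates calcineurin, which dephosphorylates inhibitor 1 or DARPP-32 and thereby releases PP1 from inhibition. PP1 then dephosphorylates postsynaptic proteins, among them CaMKII and AMPA receptor subunits. The RCAN proteins bind calcineurin directly and restrain it. Several of these genes make more than 1 messenger RNA. The alternative exons are given first because some transcripts compared below differ in them, though not always in them alone.

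Ppp3ca and Ppp3cb, the genes of the A subunits alpha and beta, each carry a coding exon of 30 bases near the 3′ end of the coding sequence that is present in some transcripts and absent from others. The exons lie at chr3:136932011-136932040 on the plus strand and chr14:20503247-20503276 on the minus strand (GRCm38, GENCODE M21). They are shown to compare the paralogs, with capitals where the bases are the same, which holds at 26 of the 30 positions.
Ppp3ca-201: CtACtGTTGAGGCTATTGAGGCTGAtgAAG
Ppp3cb-205: CcACaGTTGAGGCTATTGAGGCTGAaaAAG

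Rcan1 and Rcan2 each start from an outer or an inner first exon, which gives the proteins different amino ends. The first 30 coding bases of each form are shown with the start codon in capitals. Those of Rcan1-202 lie at chr16:92466049-92466078 and those of Rcan1-201 at chr16:92399953-92399982, both on the minus strand. Those of Rcan2-206 lie at chr17:43836273-43836302 and those of Rcan2-201 at chr17:43953451-43953480, both on the plus strand (GRCm38).
Rcan1-202, outer: ATGgaggacggcgtggccgggccgcggctc
Rcan1-201, inner: ATGcattttagggactttagctacaatttt
Rcan2-206, outer: ATGaggggagacgcctacttcattggaatg
Rcan2-201, inner: ATGccagcccctagcatggactgtgatgtt

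Ppp1cc, the gene of PP1 gamma, ends in the gamma 1 or the gamma 2 form by splicing of its last coding part. The last 30 coding bases before the stop codon are shown with the final codon in capitals, at chr5:122174112-122174141 for Ppp1cc-202 (gamma 1) and chr5:122175018-122175047 for Ppp1cc-201 (gamma 2), on the plus strand (GRCm38).
Ppp1cc-202: cggggtatgatcacaaagcaagcaaagAAA
Ppp1cc-201: aattatagaaacaacactgtcctatacGAG

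Library totals ranged from 18106112 to 25899794 counts, and the members were covered deeply, with 1631 counts for Rcan1 in its lowest library and 54955 for Ppp3ca in its highest. Synaptic genes (Camk2a, Slc17a7, Dlg4, Snap25, Syn1, Grin1, Gria1 and Gria2) were present in every library. They summed to 6900.1 to 8662.2 CPM (CPM are counts relative to the TMM-scaled library size). Snap25 alone gave 2946.1 to 4493.8 CPM. Astrocyte, microglial and oligodendrocyte markers were present as well, the last at 12337.7 to 28352.9 summed CPM, so the fraction also held RNA of other cells. Choroid plexus and ependymal markers had the largest ratio of highest to lowest library of the 13 marker lists, with 432.2 summed CPM in vehicle replicate 4 and 2210.5 to 10058.7 in the other libraries. In such bulk samples fewer cells of a type and less RNA per cell cannot be told apart.

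Scaled for transcript length, the calcineurin genes Ppp3ca and Ppp3r1 had the highest RNA levels of the 10 genes. The RNA of the A subunit was almost entirely of the alpha type. Ppp3ca had 1397.5 ± 159.9 TPM, the length-scaled transcript level (SD over 10 libraries), and ranked 71 among 18698 genes with a value. Ppp3r1, the gene of the regulatory B subunit that the A subunit needs for activity, had 1196.4 ± 123.5 TPM and ranked 82. The other catalytic genes were far lower, with 67.0 ± 7.004 TPM for Ppp3cb and 27.8 ± 3.59 TPM for Ppp3cc, the gamma subunit gene best known from testis. Ppp3ca therefore held 92.5% to 94.5% of the summed A-subunit level in each of the 10 libraries.

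Among the 3 catalytic genes of PP1, Ppp1ca (alpha) had 512 ± 49.6 TPM, Ppp1cc (gamma) 224 ± 21.7 TPM and Ppp1cb (beta) 89.6 ± 11.95 TPM. Ppp1ca held 56.8% to 69.6% of their sum in each library. These gene levels include transcripts without coding sequence. The coding Ppp1ca transcript held only 31.6% to 61.1% of its sum with the main noncoding one. The order of the coding forms alone was not compared. The inhibitor genes had 234 ± 30 TPM for Ppp1r1a (inhibitor 1) and 149 ± 39.2 TPM for Ppp1r1b (DARPP-32, the dopamine-regulated inhibitor best known from striatum). Rcan2 had 91.5 ± 15.7 TPM and Rcan1 had 82.9 ± 8.37 TPM.

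The order of these levels was the same in every library only for some neighbours. Ppp3ca lay above Ppp3r1 in 10 of 10 libraries, by a geometric mean ratio of 1.17, and Ppp3r1 lay above Ppp1ca in 10 of 10 by a geometric mean ratio of 2.33. Ppp1ca lay above Ppp1r1a in 10 of 10, by a geometric mean ratio of 2.19. Further down, Ppp1cc lay above Ppp1r1b in 10 of 10, Ppp1r1b above Rcan2 in 9 of 10 and Rcan1 above Ppp3cb in 9 of 10. Other neighbours did not differ beyond their spread: Ppp1r1a lay above Ppp1cc in 4 of 10 libraries, Rcan2 above Ppp1cb in 6 of 10 and Ppp1cb above Rcan1 in 5 of 10. The TPM values use annotated transcript lengths, and a longer unused 3′ end in the annotation lowers them.

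**Figure D1:**
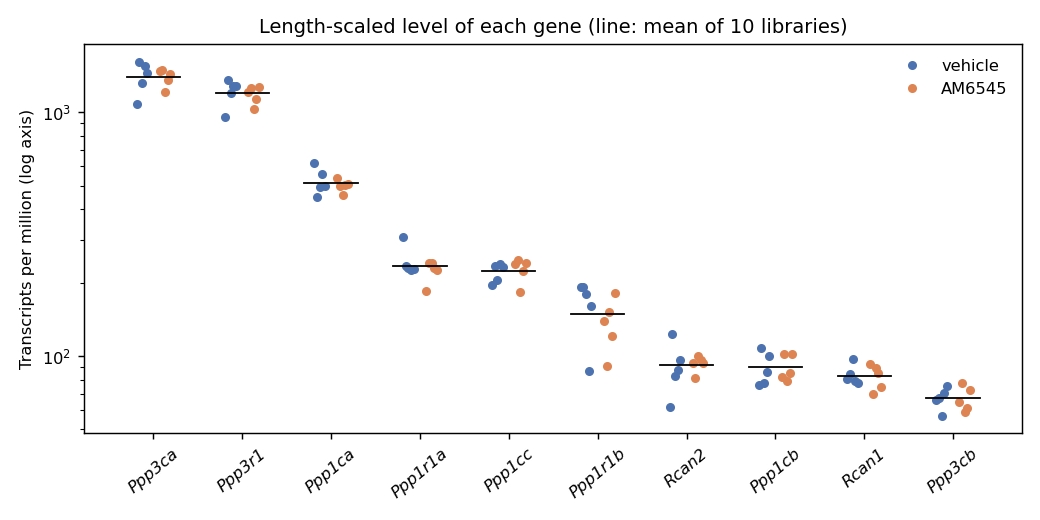
Length-scaled level (TPM, log axis) of the 10 genes in each library, vehicle in blue and AM6545 in orange, with a line at the mean of the 10 libraries. Ppp3ca (mean 1397.5) and Ppp3r1 (mean 1196.4) stand above Ppp1ca (mean 512), and the points of Rcan2, Ppp1cb and Rcan1 overlap.

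With edgeR's quasi-likelihood test over the 14358 genes that passed the expression filter, 0 of the 10 genes passed the Benjamini-Hochberg adjusted threshold of 0.05, and 0 of all genes tested did (0%). At an unadjusted p under 0.05 there were also 0 of the 10, against 1.88% of all genes tested. The DESeq2 Wald test and limma-voom with sample quality weights likewise gave 0 of the 10, both adjusted (0% of all genes in each) and at an unadjusted p under 0.05 (1.92% and 4.94% of all genes). For every one of the 10 the AM6545 and vehicle libraries overlapped. Over all genes tested, complete separation with AM6545 on the higher side occurred for 0.174% and on the lower side for 0.118%. The log2 fold changes of the 10 genes ran from -0.30 to 0.04 with a median of -0.05, 2 above and 8 below 0, beside a median of -0.0057 over all genes tested. These values are differences of AM6545 minus vehicle.

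**Figure D2:**
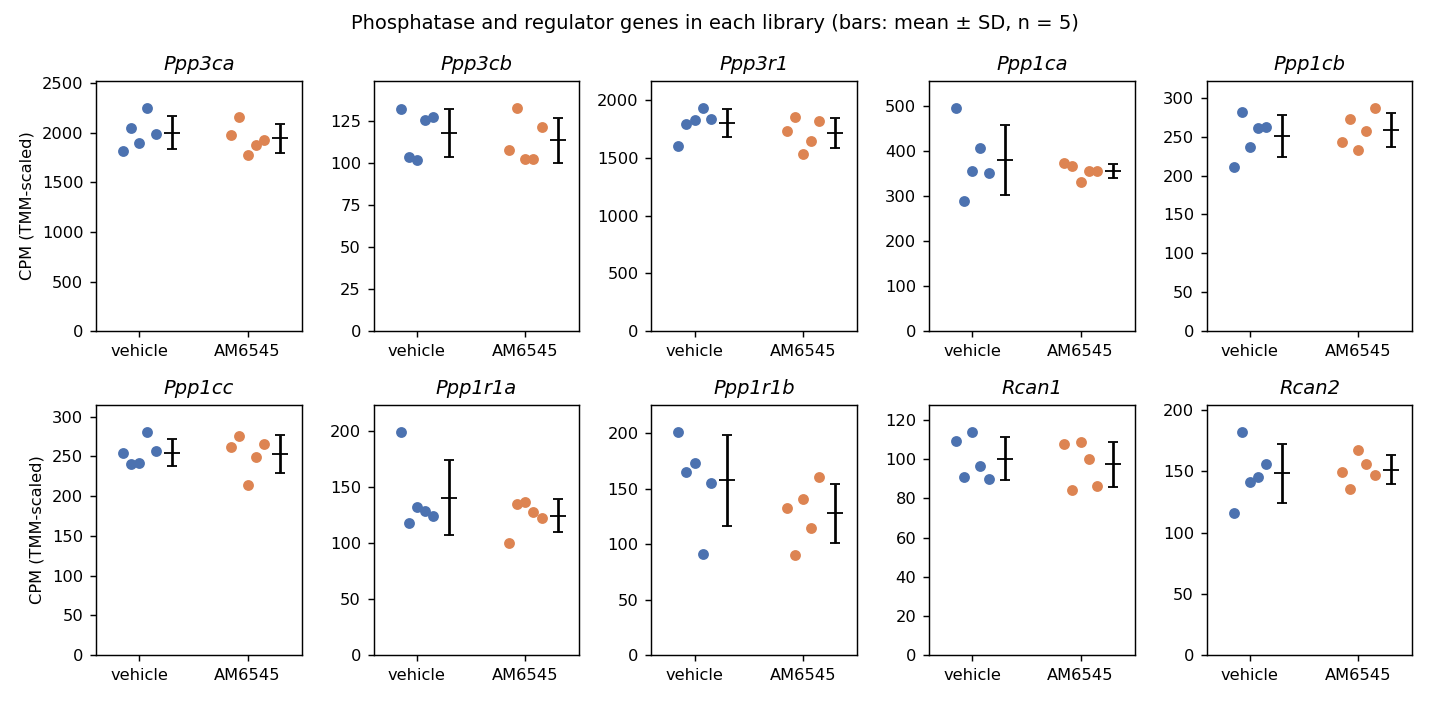
CPM (TMM-scaled, linear axes from 0) of the 10 genes in the 5 vehicle (blue) and 5 AM6545 (orange) libraries, with the mean ± SD of each group. The groups overlap in every panel, and vehicle replicate 1 stands highest for Ppp1ca (495 CPM) and Ppp1r1a (199 CPM).

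Among the 10 genes Ppp3r1, Ppp1cc and Ppp3ca had the smallest spread over all libraries, with coefficients of variation of 7.18%, 7.57% and 7.59%, while that of Ppp3cb was 11.4%. Ppp3ca, the alpha catalytic subunit that predominates in brain, had 1812.1, 2044.1, 1894.3, 2251.0 and 1991.0 CPM in vehicle replicates 1 to 5 and 1975.7, 2162.4, 1771.7, 1880.7 and 1928.2 CPM in AM6545 replicates 1 to 5. The highest library was vehicle replicate 4 and the lowest AM6545 replicate 3, and the remaining values interleave. The means were 1998.5 ± 167 and 1943.7 ± 143.7 CPM (± SD of 5 libraries), and the fitted log2 fold change was -0.04 ± 0.10 (SE, edgeR unadjusted p = 0.702, adjusted p = 0.9998). Its 95% interval ran from 0.837-fold to 1.13-fold.

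Ppp3r1 followed a similar pattern, with 1603.4, 1789.9, 1824.9, 1930.6 and 1835.3 CPM in the vehicle libraries and 1727.8, 1852.4, 1531.7, 1640.5 and 1814.4 CPM in the AM6545 libraries. As for Ppp3ca, vehicle replicate 4 was highest and AM6545 replicate 3 lowest. The fitted log2 fold change was -0.07 ± 0.10 (SE, edgeR unadjusted p = 0.504, adjusted p = 0.9998), and the 95% interval ran from 0.823-fold to 1.11-fold. Of the 31-base words in the transcripts of Ppp3r1, 14.6% also occurred in transcripts of other genes, most often Wdr92, whose exons overlap it on the same strand. Wdr92 held only 225 to 448 counts per library.

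Ppp3cb, the beta catalytic subunit, had 118 ± 14.3 CPM (vehicle) against 113.5 ± 13.3 CPM (AM6545) (± SD of 5 libraries). The vehicle libraries spanned 102 to 132 CPM and the AM6545 libraries 103 to 133 CPM, so the ranges nearly coincided. The fitted log2 fold change was -0.06 ± 0.11 (SE, edgeR unadjusted p = 0.607, adjusted p = 0.9998).

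The PP1 catalytic genes did not differ by more than their spread either. The alpha gene had a larger SD among vehicle than among AM6545 libraries, a difference that was not tested. Ppp1ca had 495, 288.5, 356, 407 and 350.2 CPM in vehicle replicates 1 to 5 and 373, 365.5, 331, 356 and 355 CPM in AM6545 replicates 1 to 5. All 5 AM6545 libraries lay inside the vehicle range, whose ends were replicates 1 and 2. The means were 379 ± 77.2 and 356 ± 15.6 CPM (± SD of 5 libraries), and the fitted log2 fold change was -0.09 ± 0.12 (SE, edgeR unadjusted p = 0.467, adjusted p = 0.9998). The sign depended on vehicle replicate 1, without which the log2 fold change was 0.02. In the annotation exons of Rad9a and AC109138.6 overlap Ppp1ca on the opposite strand, and the use of strand in counting is not given in the sources used here. Rad9a held 218 to 340 counts per library, against 6011 to 10201 for Ppp1ca.

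Ppp1cb, the beta subunit, which also serves in myosin phosphatase, had 250.4 ± 27.02 CPM (vehicle) against 258 ± 21.9 CPM (AM6545) (± SD of 5 libraries), and the fitted log2 fold change was 0.04 ± 0.10 (SE, edgeR unadjusted p = 0.662). Ppp1cc, whose protein is enriched in dendritic spines, had 255 ± 16.6 and 253 ± 23.5 CPM (± SD of 5 libraries), and the fitted log2 fold change was -0.0094 ± 0.095 (SE, edgeR unadjusted p = 0.922). The standard error of Ppp1cc was below that of all but 7.41% of the genes tested, and its 95% interval ran from 0.865-fold to 1.14-fold. Of its 31-base words 41.7% also occurred in transcripts of other genes, most often the related gene Ppp1ccb, and 17.3% of those of Ppp1cb did, most often Gm43312. Neither Ppp1ccb nor Gm43312 was among the genes analysed here, and how shared sequence bears on the 2 totals was not tested.

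The PP1 inhibitor genes had the lowest log2 fold changes of the 10 and the widest spread between libraries. Ppp1r1a had 199, 118, 132, 128 and 124 CPM in vehicle replicates 1 to 5 and 99.8, 134, 136.5, 128 and 123 CPM in AM6545 replicates 1 to 5. Vehicle replicate 1 stood far above the other 9 libraries, and AM6545 replicate 1 was the lowest. The means were 140.4 ± 33.4 and 124 ± 14.7 CPM (± SD of 5 libraries), and the fitted log2 fold change was -0.18 ± 0.14 (SE, edgeR unadjusted p = 0.220, adjusted p = 0.9998). Without vehicle replicate 1 the log2 fold change was -0.016, so its size rested on that library.

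Ppp1r1b had 202, 165.5, 173, 91.5 and 155 CPM in vehicle replicates 1 to 5 and 133, 90.6, 140.3, 115 and 160.4 CPM in AM6545 replicates 1 to 5. In 4 of the 5 vehicle libraries it exceeded 155 CPM, and vehicle replicate 4 lay with the lowest AM6545 library. The means were 157 ± 40.7 and 128 ± 26.4 CPM (± SD of 5 libraries), and the fitted log2 fold change was -0.30 ± 0.18 (SE, edgeR unadjusted p = 0.124, adjusted p = 0.9998). The 95% interval, 0.618-fold to 1.07-fold, was the widest of the 10 genes. Without vehicle replicate 4 the log2 fold change was -0.44 (edgeR unadjusted p = 0.00681, adjusted p = 0.9999). It was -0.20 without vehicle replicate 1 (edgeR unadjusted p = 0.349) and also -0.20 without AM6545 replicate 2 (edgeR unadjusted p = 0.282). Without vehicle replicates 1 and 4 together, a choice made after seeing the data, the log2 fold change was -0.37 (edgeR unadjusted p = 0.0193, adjusted p = 0.9999). In that fit 1 of the 10 genes had an unadjusted p under 0.05, against 3.91% of all genes tested, and 0 passed the adjusted threshold (0% of all genes). An exon of 1700003D09Rik overlaps Ppp1r1b on the opposite strand and holds 11.6% of its 31-base words.

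The level of Ppp1r1b moved with the choroid plexus and ependymal markers (Ttr, Kcnj13, Folr1, Clic6, Kl, Otx2, Aqp1, Enpp2, Foxj1 and Sostdc1, all 10 of them tested). Their summed CPM was 9279.6, 7390.5, 10058.7, 432.2 and 6825.6 in vehicle replicates 1 to 5 and 4642.5, 2284.2, 6917.5, 2210.5 and 7741.1 in AM6545 replicates 1 to 5. The libraries low in these markers, vehicle replicate 4 and AM6545 replicates 2 and 4, were the 3 lowest in Ppp1r1b. On log2 scales Pearson's r was 0.879 over the 10 libraries (permutation p = 6.0e-05, adjusted over 130 relations 0.0078) and Spearman's rho was 0.927 (permutation p = 0.00031, adjusted 0.0403). Within the 5 vehicle libraries r was 0.968 and within the 5 AM6545 libraries 0.901, given without a test, and r was 0.958 without the 2 libraries farthest from the median marker level, vehicle replicate 4 and AM6545 replicate 4. No other of the 130 relations of the 10 genes with 13 marker lists passed the adjusted threshold, and that of Ppp1r1b with 7 tested markers of striatal medium spiny neurons had r = 0.162 (permutation p = 0.660, adjusted 0.867) and rho = -0.079 (permutation p = 0.838, adjusted 0.916), with r = -0.747 without the 2 farthest libraries, AM6545 replicates 2 and 5. For these striatal markers r was -0.728 within the vehicle and 0.828 within the AM6545 libraries, so its sign depended on the libraries taken.

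The marker level spanned 432.2 to 10058.7 summed CPM in vehicle and 2210.5 to 7741.1 in AM6545 libraries, and none of the 10 markers was at 0 in all libraries (exact permutation test of the mean log2 CPM, p = 0.984). With that level as a covariate, chosen after the data were seen, the log2 fold change of Ppp1r1b was -0.24 (edgeR unadjusted p = 0.0304, adjusted p = 1). In that fit 1 of the 10 genes had an unadjusted p under 0.05, against 2.12% of all genes tested, and 0 passed the adjusted threshold (0% of all genes). The part of these markers in the level of Ppp1r1b was not tested further. The striatal marker Drd1 was low in all libraries (5.73 to 9.31 CPM), and Adora2a did not pass the filter.

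**Figure D3:**
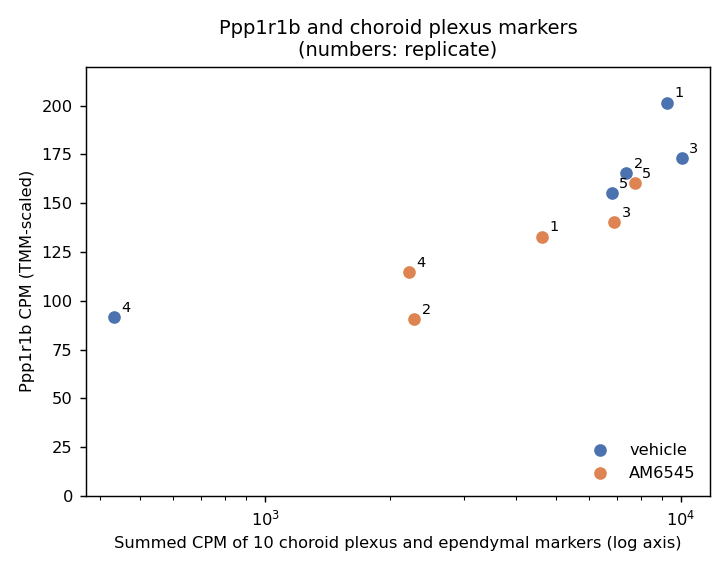
Ppp1r1b (CPM, linear axis from 0) against the summed CPM of 10 choroid plexus and ependymal markers (log axis) in the 10 libraries, with vehicle in blue, AM6545 in orange and the replicate number beside each point. The 3 libraries lowest in the markers are the 3 lowest in Ppp1r1b, and vehicle replicate 4 lies apart at 432.2 summed CPM.

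The genes of the calcineurin regulators did not pass the test. Rcan1, whose inner-exon form is a known transcriptional target of calcineurin and NFAT, had 109, 90.9, 114, 96.5 and 90.0 CPM in vehicle replicates 1 to 5 and 108, 84.3, 109, 100.1 and 86.4 CPM in AM6545 replicates 1 to 5. The ranges overlap almost entirely, and the fitted log2 fold change was -0.04 ± 0.11 (SE, edgeR unadjusted p = 0.720, adjusted p = 0.9998). Rcan2, its paralog, had 148 ± 24.2 and 151 ± 11.7 CPM (± SD of 5 libraries), and the fitted log2 fold change was 0.03 ± 0.11 (SE, edgeR unadjusted p = 0.804). Its ends were both vehicle libraries, replicate 1 at 116 and replicate 2 at 182.5 CPM.

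**Figure D4:**
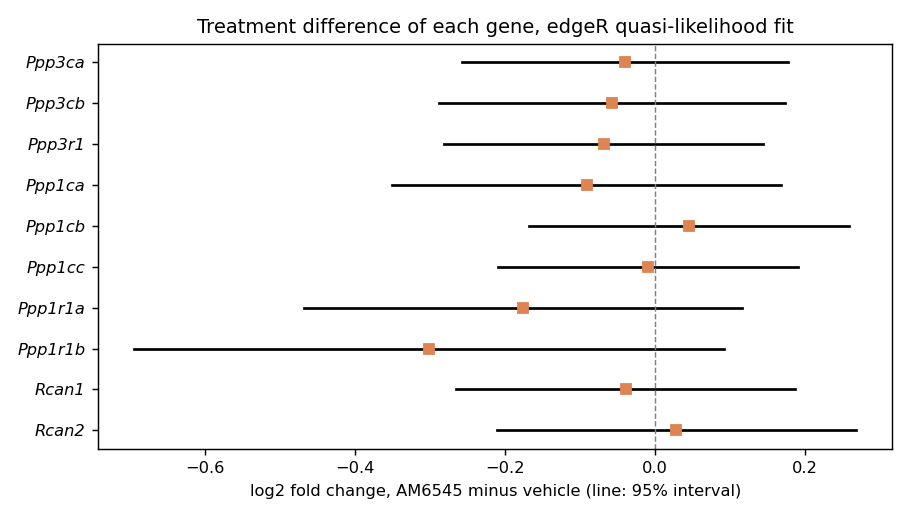
Log2 fold change (AM6545 minus vehicle) of the 10 genes from the edgeR fit as squares, with 95% intervals as lines and a dashed line at 0. Every interval includes 0, from the narrow one of Ppp1cc (-0.21 to 0.19) to that of Ppp1r1b (-0.69 to 0.09).

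The balance between subunits, taken as ratios of TPM within each library, was compared by 7 measures with two-sided exact permutation tests, whose smallest possible p is 0.00794, and none passed. The Ppp3ca share of the calcineurin A genes was 93.6 ± 0.770% with vehicle and 93.6 ± 0.347% with AM6545 (± SD of 5 libraries, exact p by permutation = 1). The log2 ratio of Ppp3r1 to the summed A genes was -0.30 ± 0.058 and -0.34 ± 0.040 (± SD of 5 libraries, exact p by permutation = 0.254), with 4 of the 5 AM6545 libraries below the vehicle mean. Ppp1ca held 62.6 ± 4.74% and 61.4 ± 1.99% of the PP1 catalytic genes, Ppp1cc 26.6 ± 2.88% and 27.6 ± 1.36%, and Ppp1cb 10.8 ± 2.02% and 11 ± 1.07% (± SD of 5 libraries, exact p by permutation = 0.627, 0.579 and 0.810). Vehicle replicates 1 and 2 formed the ends of all 3 PP1 shares. These shares count every transcript of a gene, those without coding sequence included.

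Ppp1r1a exceeded Ppp1r1b in each of the 10 libraries, by 0.64 ± 0.44 log2 units in vehicle and 0.74 ± 0.44 in AM6545 libraries (± SD of 5 libraries, exact p by permutation = 0.698). Both gene levels include transcripts without coding sequence. Beside the noncoding transcript given below, the coding transcript held 52.4% to 58.9% for Ppp1r1a and 73.5% to 100% for Ppp1r1b. The order of the coding transcripts alone was not compared. Vehicle replicate 4 (1.38) and AM6545 replicate 2 (1.40), both low in choroid plexus markers, had the highest ratios. The log2 ratio of Rcan2 to Rcan1 was 0.08 ± 0.38 and 0.17 ± 0.11 (± SD of 5 libraries, exact p by permutation = 0.571). After adjustment over the 7 measures the smallest p was 0.944.

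Transcripts were examined because the gene total can hide a change of form. Of the 66 transcripts of the 10 genes in the transcript table, 31 passed the filter and 0 passed the adjusted threshold in edgeR over 31848 transcripts, 1 of which passed (0.00314%). At an unadjusted p under 0.05 there were 0 of the 31, against 1.97% of all transcripts tested, and the DESeq2 Wald test gave 2 of the 31 at that level, against 2.75% of all transcripts, and limma-voom 1 of the 31, against 3.85%. After adjustment both gave 0 of the 31, against 0.0346% of all transcripts by DESeq2 and 0% by limma-voom. For 0 of the 31 were the groups completely separated, against 0.295% of all transcripts tested on the higher and 0.279% on the lower side. The smallest p among them belonged to Ppp3cb-202 (log2 fold change -0.31 ± 0.14 SE, edgeR unadjusted p = 0.0536).

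The isoform shares below are length-scaled, and the 8 of them were defined after the transcript values had been seen. The Ppp3ca estimate lay mostly on Ppp3ca-201, which contains the 30-base exon. Ppp3ca-201 held 78.0 ± 2.12% with vehicle and 78.7 ± 2.002% with AM6545 of the sum with Ppp3ca-202, which skips the exon (± SD of 5 libraries, exact p by permutation = 0.627). The models also differ in their first exon, 132 against 778 bases, and in their last exon, 751 against 2699 bases. This share therefore reflects all of these features and does not measure the use of the 30-base exon alone. Vehicle replicate 1 had the lowest share at 74.4%, and the 9 other libraries lay between 76.6% and 80.9%.

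For Ppp3cb the forms with the matching exon held 100, 87.2, 94.7, 100 and 94.3% in vehicle replicates 1 to 5 and 91.1, 87.8, 86.8, 92.9 and 89.4% in AM6545 replicates 1 to 5. All 5 AM6545 libraries lay below the vehicle mean, but vehicle replicate 2 lay among them. The means were 95.2 ± 5.27% and 89.6 ± 2.47% (± SD of 5 libraries, exact p by permutation = 0.0714, adjusted over 8 shares 0.275). Without vehicle replicate 2 the exact permutation p was 0.0159 (adjusted 0.127). That was the smallest of the leave-one-out values, which reached 0.143, as without vehicle replicate 1. The skipping transcript, Ppp3cb-201, was estimated at 0 counts in 2 libraries, vehicle replicates 1 and 4, and reached 277 counts at most.

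Ppp1ca divided between Ppp1ca-201, which encodes PP1 alpha, and Ppp1ca-204, annotated as a processed transcript with no coding sequence. They differ mainly in the first exon, of 207 and 53 bases. The coding form held 31.6, 41.4, 39.3, 51.6 and 59.8% in vehicle replicates 1 to 5 and 50.7, 60.5, 48.0, 60.5 and 61.1% in AM6545 replicates 1 to 5. All 5 AM6545 libraries lay above the vehicle mean, 3 vehicle libraries lay below all AM6545 libraries, and vehicle replicates 4 and 5 lay among them. The means were 44.7 ± 11.1% and 56.1 ± 6.30% (± SD of 5 libraries, exact p by permutation = 0.103, adjusted over 8 shares 0.275). Without vehicle replicate 5 the exact permutation p was 0.0476 (adjusted 0.381), the smallest of the leave-one-out values. The largest was 0.206, without vehicle replicate 1.

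In CPM, Ppp1ca-201 had 176 ± 40.9 in vehicle and 209 ± 25.6 in AM6545 libraries (± SD of 5 libraries), and the fitted log2 fold change was 0.25 ± 0.16 (SE, edgeR unadjusted p = 0.151). Ppp1ca-204 had 202 ± 73.9 and 146 ± 21.1 CPM (± SD of 5 libraries), and the fitted log2 fold change was -0.46 ± 0.22 (SE, edgeR unadjusted p = 0.0629, adjusted p = 0.9999). The estimates thus differed in sign while neither passed the test. The split of reads between transcripts that share most exons carries an error that the tables do not give.

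Ppp1cc was overwhelmingly of the gamma 1 form, and the gamma 2 ending held 10.6 ± 0.831% with vehicle and 10.6 ± 1.44% with AM6545 (± SD of 5 libraries, exact p by permutation = 0.968). For Ppp1r1a the coding transcript held 54.6 ± 2.45% and 55.3 ± 1.90% of the sum with the processed transcript Ppp1r1a-202 (± SD of 5 libraries, exact p by permutation = 0.643). For Ppp1r1b the coding transcript held 86.1 ± 9.94% and 89.6 ± 10.4% of the sum with the retained-intron transcript Ppp1r1b-202 (± SD of 5 libraries, exact p by permutation = 0.611), which was at 0 counts in 2 libraries.

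The Rcan paralogs used opposite first exons. Rcan1 was read almost entirely from its outer exon, and the inner form Rcan1-201 held 2.80, 3.34, 1.28, 1.16 and 3.25% in vehicle replicates 1 to 5 and 0.90, 2.70, 0, 0.379 and 1.43% in AM6545 replicates 1 to 5. Of the AM6545 libraries 4 lay below the vehicle mean and replicate 2 above it. The means were 2.36 ± 1.07% and 1.08 ± 1.05% (± SD of 5 libraries, exact p by permutation = 0.0873, adjusted over 8 shares 0.275). Without AM6545 replicate 2 the exact permutation p was 0.0476 (adjusted 0.381), the smallest of the leave-one-out values. They reached 0.175, as without vehicle replicate 2. Rcan1-201 rested on at most 65 counts per library.

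Rcan2 in contrast was read mainly from its inner exon, with 68.1 ± 4.18% with vehicle and 68.2 ± 3.13% with AM6545 for Rcan2-201 (± SD of 5 libraries, exact p by permutation = 0.976). Rcan1-206, which also starts from the outer exon but is annotated with a shorter coding sequence (594 against 753 bases), was estimated at 0 counts in 6 of the 10 libraries and at up to 1598 counts in the others. It held 25.0 ± 28.3% of the gene's counts in vehicle and 1.69 ± 3.78% in AM6545 libraries, did not pass the filter and is counted with Rcan1-202 in the shares above. Rcan1-202 alone had 71.2 ± 28.4 CPM (vehicle) against 95.2 ± 11.4 CPM (AM6545) (± SD of 5 libraries), and the fitted log2 fold change was 0.42 ± 0.27 (SE, edgeR unadjusted p = 0.154).

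**Figure D5:**
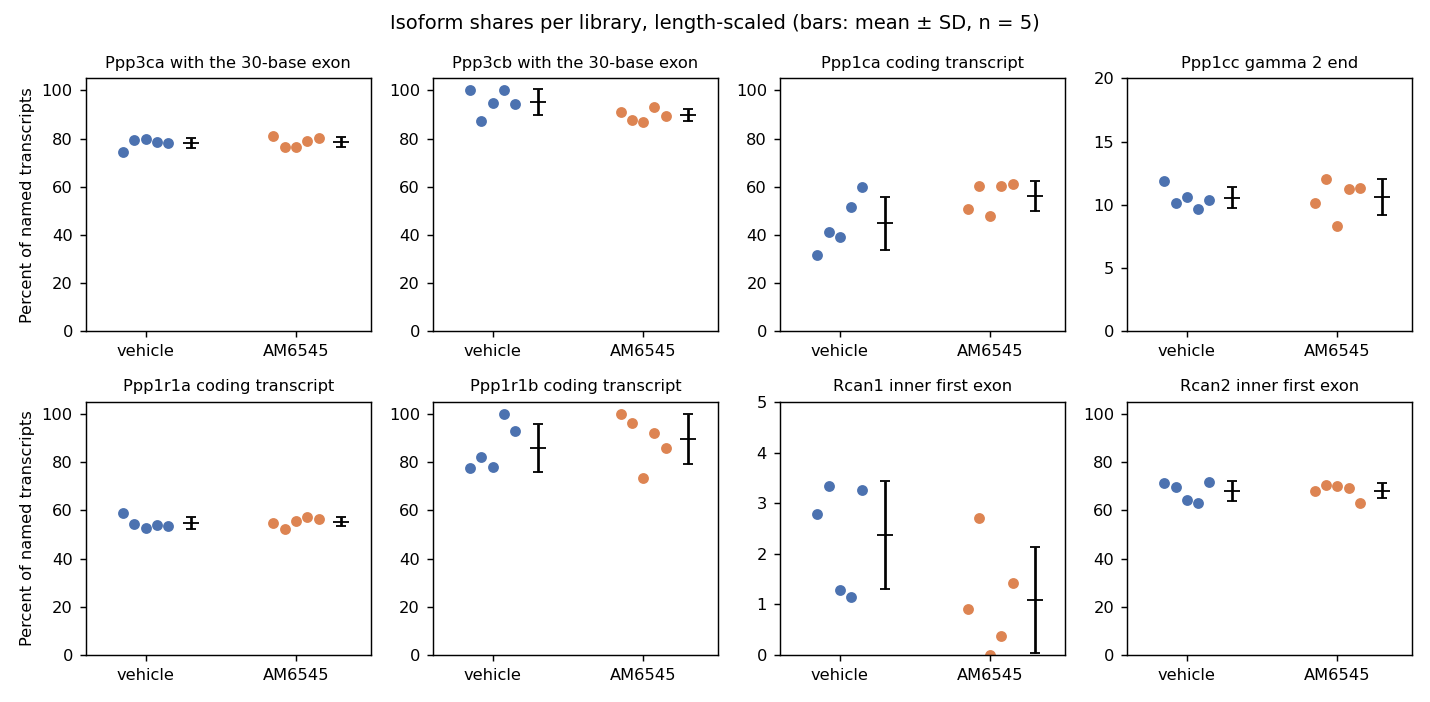
Share of each named isoform (percent of the length-scaled sum of the transcripts compared, axes from 0 with different upper ends) in 5 vehicle (blue) and 5 AM6545 (orange) libraries, with the mean ± SD of each group. The groups overlap in every panel, and all 5 AM6545 libraries lie above the vehicle mean for the Ppp1ca coding transcript (44.7%).

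The surrounding pathways were taken from lists of their known components. Of 106 listed genes 100 passed the filter, and 0 passed the adjusted threshold in edgeR, with 59 log2 fold changes above and 41 below 0 and a median of 0.02 (-0.0057 over all genes tested). At an unadjusted p under 0.05 there was 1 of the 100, against 1.88% of all genes tested. The DESeq2 Wald test gave 1 at that level, against 1.92% of all genes, and limma-voom 2, against 4.94%. After adjustment both gave 0 (0% of all genes in each). All 3 calmodulin genes, whose product activates calcineurin, were below 0, with a median of -0.10 and none passing. Other calcineurin partners such as the anchor Akap5 (8 tested) had a median of 0.03, calcineurin substrates and NFAT genes (19 tested) 0.03, PP1 regulators (30 tested) 0.02, PP2A and other phosphatase genes (28 tested) 0.02 and the kinases and receptors acting on DARPP-32 (12 tested) 0.01.

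The gene with an unadjusted p under 0.05 was Ptpa, which encodes an activator of PP2A. It had 80.9, 124, 107, 112 and 117 CPM in vehicle replicates 1 to 5 and 134, 121, 127, 132 and 136 CPM in AM6545 replicates 1 to 5. Only vehicle replicate 2 reached into the AM6545 range, and the fitted log2 fold change was 0.26 ± 0.11 (SE, edgeR unadjusted p = 0.0271, adjusted p = 0.9998). Next by p among the higher estimates came Cdk5r2, the p39 activator of Cdk5 (19.2 ± 2.41 and 22.4 ± 2.97 CPM, ± SD of 5 libraries, edgeR unadjusted p = 0.0814), and Dnm1, the dynamin of synaptic vesicle retrieval and a calcineurin substrate (303 ± 64.0 and 373 ± 84.3 CPM, ± SD of 5 libraries, edgeR unadjusted p = 0.104).

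The 3 lower estimates of smallest p were Ensa, an inhibitor of PP2A (399 ± 26.3 and 365 ± 23.5 CPM, ± SD of 5 libraries, edgeR unadjusted p = 0.181), Ppp4c, the catalytic subunit of PP4 (74.0 ± 10.99 and 67.2 ± 2.96 CPM, ± SD of 5 libraries, edgeR unadjusted p = 0.196), and Ppp1r15a, the PP1 partner GADD34 (25.2 ± 3.10 and 22.4 ± 3.42 CPM, ± SD of 5 libraries, edgeR unadjusted p = 0.203). None of these differences passed the adjusted threshold. Ppp3r2, the second B-subunit gene, which is known from testis, held 0 to 6 counts per library and was not tested.

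Which genes varied most like each member across the 10 libraries was read from log2 CPM centred within each group, among 9603 genes of at least 10 CPM. The most alike were Appl1 for Ppp3ca (Pearson's r = 0.979), Dpm1 for Ppp3cb (r = 0.954), Sms for Ppp3r1 (r = 0.968), Cope for Ppp1ca (r = 0.994), 0610010F05Rik for Ppp1cb (r = 0.9752) and Eif2s1 for Ppp1cc (r = 0.972). Polr2i was most alike to Ppp1r1a (r = 0.979), Ucp2 to Ppp1r1b (r = 0.977), Slc35b2 to Rcan1 (r = 0.9751) and Epc1 to Rcan2 (r = 0.973). Each is the highest value over all genes compared, in libraries that share depth and composition, and is given as a description without a test. Spearman's rho ran from 0.891 (Ppp3cb and Ppp1cc) to 1 (Ppp1cb), and without the 2 libraries farthest from the member's median r ran from 0.862 (Ppp1r1b) to 0.970 (Ppp3ca).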

How the data were processed

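Per the labels' protocols, total RNA of hippocampal synaptoneurosomes was made into libraries with a SMARTer ultra-low-input kit. The authors deposited estimated counts, 1 table for genes and 1 for transcripts, over the 10 libraries. The values themselves show the unit, since 38.6% in the gene table were not whole. Per the submitters' processing notes, Salmon 1.5.2 and mm10 were used, with no role given. The annotation release and use of strand are not given in the sources used here.

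Estimated counts were rounded and tested with edgeR 4.0.16 in R 4.3.3 (filterByExpr with a minimum count of 10, TMM, robust quasi-likelihood, group alone, Benjamini-Hochberg over all features, threshold 0.05, two-sided). The alternatives used DESeq2 1.42.0 and limma 3.58.1. The p-values thus cover all 14358 genes or 31848 transcripts. Symbols, lengths, exons and sequences came from GENCODE M21 (GRCm38), matched by identifier without version, since only 11 gene versions were the same. Symbols were found for 22155 of 22255 genes, and lengths for 101575 of 102392 transcripts, the rest holding 0.723% of counts. For each of the 10 genes the listed transcripts summed to the gene total. TPM is each transcript's count per length, scaled to a fixed library sum and added up per gene. Shares and ratios were compared by two-sided exact permutation tests, and relations with marker lists by 100000 resamples (Python 3.11.15, scipy 1.17.1). The gene-level edgeR fit was tested on simulated data. Replicate numbers were the only link between the groups in the labels. With counts of at least 18106112 per library the floor of 3 counts lies at or under 0.166 CPM, and amplified reads without molecular identifiers make this counting error only.

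All 10 genes are named. Of the pathway lists the 3 genes per direction of smallest p are named, and of transcripts those with at least 10% of their gene's counts and others chosen after their values were seen. The genes, lists and tests were chosen with earlier results of these data known.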

Additional observations from a re-analysis of the deposited data

Results flagged for a closer look

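The extreme library of each group was compared with its 4 companions in 50 sets of values. The gap was unusually large in 3, beside 2.5 expected by chance, and vehicle replicate 1 was the library each time. Many of the sets share genes and all share libraries, so the count cannot decide whether these gaps are chance. Its Ppp1r1a level was 199 CPM, against 118 to 132 CPM in the other vehicle libraries. Its share of Ppp3ca with the 30-base exon was 74.4%, against 78.3% to 79.8%. Its share of the Ppp1r1a coding transcript was 58.9%, against 52.6% to 54.4%.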

How the results depend on the processing

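The number of the 10 genes past the adjusted threshold stayed at 0 under the 21 alternatives run on them (10 that each left out 1 library and 11 others), as did that of the 100 tested pathway genes, and that of the genes' transcripts stayed at 0 under 20 alternatives. No paired animals are named in the labels, so the numbers were not taken as pairs. With the replicate block all 3 counts were 0. The deviations of same-numbered libraries correlated at -0.14, -0.19, 0.23, 0.39 and 0.065, which is mixed. Of the 5 vehicle libraries 3 correlated best with their own number. These values do not settle whether the numbers mark pairs.

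Small differences changed sign with the setting, and the cause was not tested. The Ppp3ca share moved from -0.0077 to 0.033 percentage points both in plain counts and with the gene table over a mean length, and the Rcan2 inner exon share to -0.011 in plain counts. Limma-voom with sample quality weights gave log2 fold changes of 0.0043 for Ppp1ca and 0.0026 for Rcan1. Without vehicle replicates 1 and 4 together, added after seeing the data, the log2 fold changes were 0.034 for Ppp3cb, 0.10 for Ppp1ca, -0.0096 for Ppp1cb, 0.041 for Ppp1cc and -0.082 for Rcan2.

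Leaving out 1 library in turn moved the log2 fold changes between -0.081 and 0.0065 for Ppp3ca, -0.17 and 0.023 for Ppp1ca, -0.010 and 0.090 for Ppp1cb, -0.041 and 0.045 for Ppp1cc, -0.085 and 0.013 for Rcan1 and -0.048 and 0.11 for Rcan2. In percentage points the range was -0.29 to 0.21 for the Ppp3ca share, -2.69 to 0.51 for PP1 alpha, -0.34 to 0.94 for PP1 beta, -0.17 to 1.75 for PP1 gamma, -0.25 to 1.18 for Ppp3ca with the exon, -0.31 to 0.62 for Ppp1cc gamma 2 and -1.10 to 1.49 for the Rcan2 inner exon. The log2 ratios ranged from -0.066 to 0.28 for Ppp1r1a to Ppp1r1b and -0.025 to 0.21 for Rcan2 to Rcan1. Ppp3cb, Ppp3r1, Ppp1r1a and Ppp1r1b kept their sign in these leave-one-out fits. Depth limits the share of Rcan1-201, which had at most 65 counts per library, and the error of dividing reads between transcripts is not given in the tables.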
